A study of Danio rerio with 12 samples.

Results

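Gene expression was compared between whole eyes collected 12 days after crush of the optic nerve and sham-operated eyes, which takes in 4 of the 12 arrays of a zebrafish time course. The fish were wild-type adult males. The left optic nerve was exposed by lifting the eye from its socket and crushed with forceps (ONX), and the fish's right eye was lifted and put back with an uninjured nerve (SHAM). Every SHAM eye therefore came from a fish with a crushed nerve on the other side, and no eye of an unoperated fish was among the arrays. Each pool held 5 eyes, with retina, lens, vitreous and the anterior and posterior segments, and gave 1 array. The labels name the pools as biological replicates, and each label had pools 1 and 2 at each of days 4, 12 and 21. The arrays of days 4 and 21 serve here as a scale for those of day 12.

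Fish, unlike mammals, regrow a crushed optic nerve. The retinal ganglion cells, whose axons form the nerve, survive the injury, switch on transcription factors such as Atf3, Jun and Sox11, and make tubulin, intermediate filaments and growth cone proteins while their axons grow back to the tectum. Microglia and Müller glia react to the injury, and myelin along the nerve is cleared and later rebuilt.

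Values are log2 of the deposited MAS5 signal plus 16, and a gene's 4 values at day 12 are given in the order SHAM pool 1, SHAM pool 2, ONX pool 1 and ONX pool 2. A difference of 1 on this scale is a 2-fold change of the signal with its offset, which understates the change of dim genes. Of 15502 probe sets that are not controls, the 9301 brightest by their mean over all 12 arrays were tested, and 5967 genes were described by 1 probe set each. Defining markers of rods, cones, interneurons, Müller glia, lens, surface epithelium, muscle, red blood cells, pigment epithelium and microglia were measured on all 4 arrays. Of the ganglion cell markers isl1a lay between 10.24 and 10.54, and pou4f2 was too dim to be tested. The oocyte genes zp2.6 and zp3.1 read at most 5.67 at day 12. In a whole eye, fewer cells of a type and less RNA per cell cannot be told apart.

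At day 12 the 2 arrays of each label were less alike than at day 21. The SHAM pools were also less alike than at day 4. Between the ONX pools 7.61% of probe sets were at least 2-fold apart and between the SHAM pools 3.77%, against 1.77% and 1.4% at day 21 and 1.06% between the SHAM pools of day 4. Rank correlations over the 9301 probe sets were 0.8911 between the ONX pools and 0.9362 between the SHAM pools. ONX pool 1 reached 0.9552 with SHAM pool 1 and 0.9543 with SHAM pool 2. For ONX pool 2 the same correlations were 0.9416 and 0.9255. By rank correlation the closest pair was thus ONX pool 1 with SHAM pool 1, by a narrow margin. By probe sets at least 2-fold apart, ONX pool 1 was instead closest to SHAM pool 2, at 177 against 183 with SHAM pool 1. The ONX pools of day 4 were farther apart still, at 17.4% and a rank correlation of 0.8098. In the genes of axon regrowth the array labelled SHAM pool 1 and the array labelled ONX pool 2 were high, and the arrays labelled SHAM pool 2 and ONX pool 1 were low. These 2 arrays, SHAM pool 1 and ONX pool 1, thus read against their labels in genes such as gap43 and atf3, in which both ONX arrays of day 4 had been above both SHAM arrays. Why they do so was not tested.

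**Figure D1:**
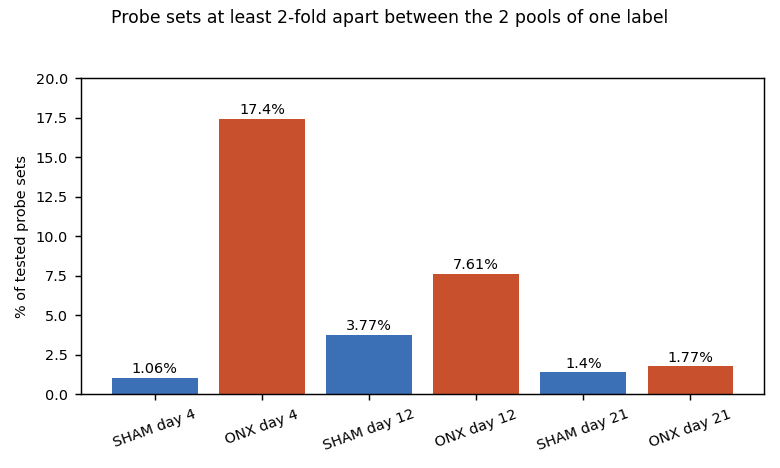
Percentage of the 9301 tested probe sets that were at least 2-fold apart between the 2 pools of each label and day, with 1 bar per group of 2 arrays (blue SHAM, red ONX). At day 12 the share was 3.77% for SHAM and 7.61% for ONX, above both groups of day 21 and below the 17.4% of ONX at day 4.

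By label, no probe set passed the test between ONX and SHAM at day 12. The limma fit with Benjamini-Hochberg adjustment called 0 of 9301 (0%), the smallest adjusted p was 0.9998, and 27 probe sets (0.29%) had an unadjusted p under 0.05. That last count was 443 without ONX pool 1 of day 12, 113 without SHAM pool 1, 86 without ONX pool 2 and 56 without SHAM pool 2, with 0 called in each case. It was 81 and 83 without ONX pools 1 and 2 of day 4. In the simulated data described in the methods the same fit recovered 28.4% of 2-fold and 97% of 8-fold changes. These rates cannot be carried over to genes whose pools of one label lay far apart. The SE of the difference by label was 1.17 in atf3 and 1.5 in gap43. Both ONX arrays were above both SHAM arrays in 486 of 5967 genes (8.14%) and below them in 402 (6.74%). When arrays were scaled to their hybridisation controls this split was 116 above and 888 below, and with poly-A controls 218 above and 396 below. Under the authors' scaling, the only one for which these orders were counted, the orders that cross the labels were the commonest. SHAM pool 1 and ONX pool 2 were the 2 highest arrays in 1404 genes (23.5%), and SHAM pool 2 and ONX pool 1 in 1410 (23.6%). Both pool 1 arrays led in 1178 genes (19.7%) and both pool 2 arrays in 1086 (18.2%).

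Among named genes whose labels did not overlap, the largest difference between label means was in a myelin gene. The gene mbpa encodes myelin basic protein, which compacts the myelin sheath, and read 10.76, 10.02, 12.88 and 11.34. Both ONX arrays were above both SHAM arrays. The label means differed by 1.72 ± 0.47 (SE, n = 2 pools per label), with an unadjusted p of 0.00402 and an adjusted p of 0.9998 in limma. The gap between the labels was 0.57, since ONX pool 2 lay well below ONX pool 1. On the other days the SHAM arrays of mbpa were between 12.45 and 13.34. ONX pool 2 of day 12, at 11.34, also lay below that range, and only ONX pool 1 lay within it. The day 12 SHAM arrays lay nearer to the ONX arrays of day 4, which read 10.93 and 10.80. Of the 6 myelin genes measured, mbpa was the 1 with both ONX arrays on top, an order found in 8.14% of all genes. The transcription factor gene olig2, of the oligodendrocyte lineage, read 7.47, 6.10, 7.57 and 7.22, and sox10 read 9.49, 8.46, 9.14 and 8.89. Both were lowest in SHAM pool 2, and their labels overlapped.

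The gene stxbp6l showed a similar order of groups. It read 7.97, 8.02, 10.11 and 8.63, a difference of 1.38 ± 0.40 with an unadjusted p of 0.00584 (adjusted p = 0.9998, limma), and its SHAM arrays of the other days were all between 9.93 and 10.33. The SHAM arrays of day 12 were thus the lowest of the 12 for this gene. ONX pool 2 of day 12, at 8.63, also lay below the SHAM arrays of the other days, while ONX pool 1 lay among them. With mbpa it made up the 2 probe sets that passed an unadjusted p of 0.01 with a 2-fold difference.

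The surface epithelium genes, which cover keratins and junction proteins of cornea and skin, were the list in which the label was followed most often. Both ONX arrays were above both SHAM arrays in 15 of 29 measured genes, or 51.7% against 8.14% of all genes, and in 0 of 29 they were below. The median difference was 0.33, against 0.01 over all genes. Without ONX pool 1 it was 0.56, and without any of the other 3 arrays between 0.25 and 0.33. The count was 5 of 29 with arrays scaled to hybridisation controls, when 1.94% of all genes had this order, and 9 of 29 with poly-A controls (3.65%). No member passed the test.

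The keratin gene krt15 read 12.21, 11.89, 12.64 and 12.65, with a difference of 0.60 ± 0.21 (unadjusted p = 0.0172, limma). Plakophilin 1, a desmosome protein encoded by pkp1b, read 8.94, 8.77, 9.42 and 9.45. In agr2, whose product folds secreted mucins, the values were 7.05, 7.10, 7.40 and 8.55. ONX pool 2 alone carried most of that difference, whereas in krt15 and pkp1b the ONX pools lay together. The keratin krt4 read 12.03, 11.66, 12.26 and 12.41. All 4 day 12 arrays were lower than every other array in krt15 and in capn9, a calpain protease gene that read 7.88, 7.84, 7.93 and 7.93 at day 12 and at least 8.88 elsewhere. The tetraspanin gene cd9b read 9.99, 9.55, 10.42 and 11.08, and the mitochondrial ribosomal protein gene mrpl32 read 7.52, 7.04, 8.22 and 7.76.

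Other genes read lower in ONX by label, with differences of under 2-fold in those named here. The 5 with the smallest p were phrf1, ublcp1, aqp8a.1, neff1 and tcf7l2, with differences from -0.51 to -0.58 and unadjusted p from 0.0179 to 0.0687 in limma. The phosphatase gene ublcp1 read 9.09, 9.03, 8.75 and 8.25, and neff1, a neurofilament gene, read 8.77, 9.13, 8.24 and 8.57. Each of phrf1 and ublcp1 has a second probe set with another order of the 4 arrays. The widest gaps included the neuronal sodium channel gene scn8aa, at 8.83, 8.81, 8.36 and 8.37, and the synaptic vesicle GTPase gene rab3c, at 9.63, 9.59, 9.24 and 9.19. The pools of one label were close together in both genes.

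**Figure D2:**
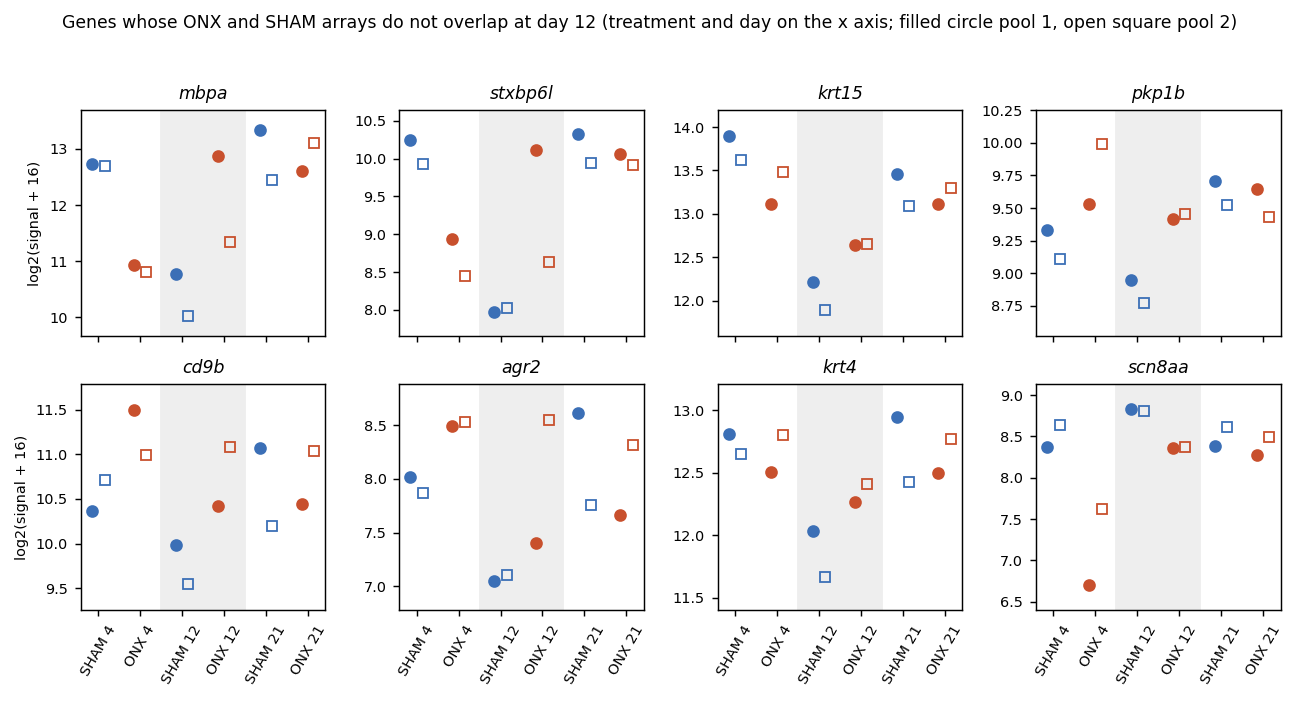
Signals of 8 genes whose ONX and SHAM arrays did not overlap at day 12 (grey band), as log2(signal + 16), for each treatment and day on the x axis and 1 point per pool of 5 eyes. In mbpa and stxbp6l the SHAM arrays of day 12 lie below the SHAM arrays of days 4 and 21, while none of these genes passed the adjusted test at day 12.

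The injury transcription factors followed the crossed order. Of 22 measured genes of this list and of STAT3 signalling, 17 were highest in SHAM pool 1 and ONX pool 2, or 77.3% against 23.5% of all genes. The lists were chosen with earlier results of these data known. This share and those of the lists below therefore describe the genes and are no independent test. Both ONX arrays were on top in 1 of the 22, against 8.14% of all genes. The stress-induced factor gene atf3 read 11.91, 7.63, 8.51 and 11.29. SHAM pool 1 was thus 19.5-fold above SHAM pool 2, and ONX pool 2 was 6.87-fold above ONX pool 1. At day 4 atf3 had read 7.71 and 7.72 in SHAM and 11.37 and 11.94 in ONX, so that the high and low arrays of day 12 lay near the ONX and SHAM levels of day 4. The difference by label was 0.13 ± 1.17 (adjusted p = 0.9998, limma).

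The SoxC factor gene sox11b read 10.24, 7.83, 7.59 and 10.34, and its paralog sox11a read 10.07, 8.58, 8.58 and 10.10. In the AP-1 subunit gene jun the values were 11.89, 9.93, 10.08 and 11.66. All probe sets of these 3 genes, 3 for sox11b and 2 for each of the others, had the same order of arrays. The Krüppel-like factor gene klf6a read 10.89, 9.50, 9.83 and 10.51. The cytokine signalling inhibitor gene socs3b read 9.65, 7.98, 9.29 and 9.49. It counts as crossed, with SHAM pool 1 and ONX pool 2 on top, but was low in SHAM pool 2 alone. Other counted genes were also low mainly in SHAM pool 2. Named after their values were seen, junba read 10.22, 9.56, 10.02 and 10.20, and jak1 read 10.73, 10.30, 10.73 and 10.89.

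Growth cone genes had the same order of arrays, with wider separation than atf3 in some members. The growth-associated protein gene gap43, a membrane protein of growing axon tips, read 12.68, 7.85, 7.95 and 12.32. SHAM pool 1 was 28.5-fold above SHAM pool 2, and ONX pool 2 was 20.7-fold above ONX pool 1. The difference by label was -0.13 ± 1.5 (adjusted p = 0.9998, limma). Day 4 had given 7.65 and 7.73 in SHAM and 12.09 and 12.22 in ONX. At day 21 SHAM read 10.15 and 9.18 and ONX 7.93 and 9.38, and SHAM pool 1 was again the highest. ONX pool 1 of day 21 lay at the low level of day 12, and the other arrays of that day lay between.

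The thymosin beta gene tmsb, whose product binds actin monomers, read 11.48, 6.4, 5.58 and 11.76. Its low values were dim, so the size of its differences is uncertain. The stathmin gene stmn4, a regulator of microtubule assembly, read 12.51, 9.65, 9.80 and 12.09. For marcksa and marcksb, which encode actin-binding substrates of protein kinase C, the values were 9.54, 6.75, 6.83 and 9.60, and 11.91, 10.03, 9.74 and 12.12. Of 17 growth cone genes measured, 12 had SHAM pool 1 and ONX pool 2 on top, against 23.5% of all genes. At least 2-fold higher on both were 7, against 1.17% of all genes. In stmn4 both high arrays of day 12 exceeded both ONX arrays of day 4, at 11.21 and 11.59. The same held in gap43 and in tmsb, whose ONX arrays of day 4 read 10.61 and 11.15, but not in marcksa or marcksb.

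**Figure D3:**
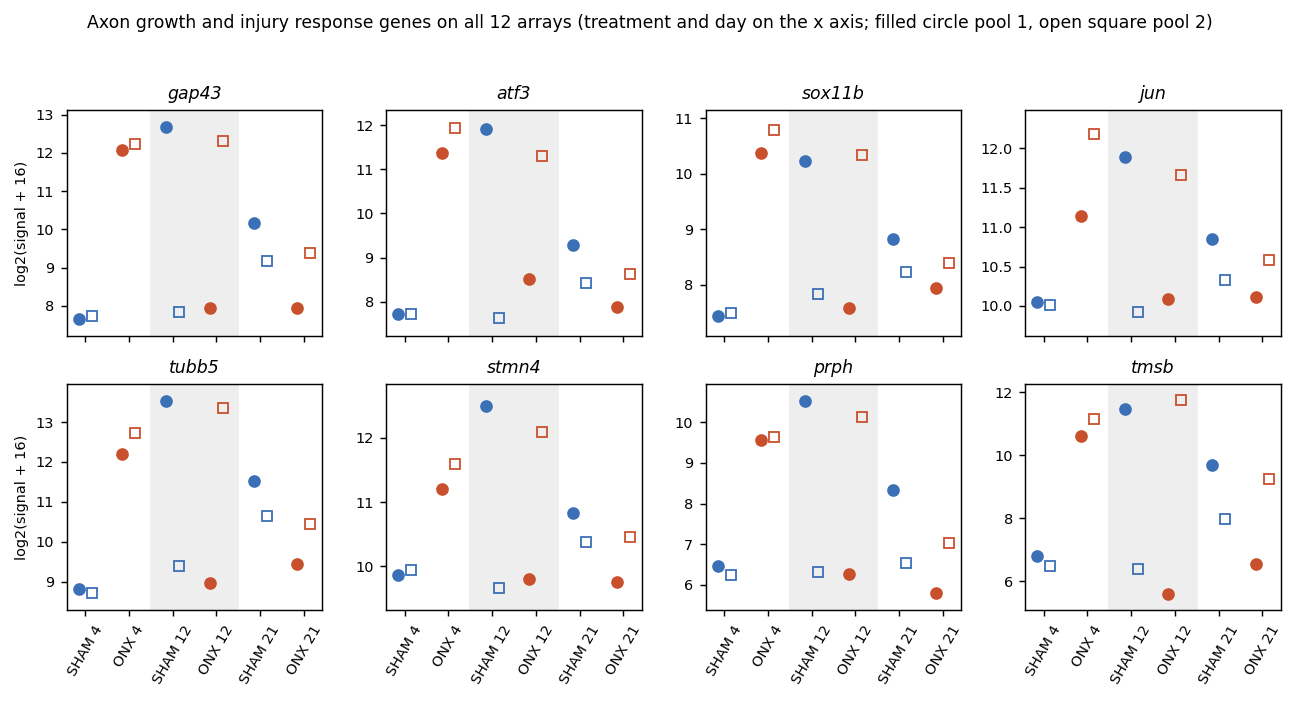
Signals of 8 axon growth and injury response genes on all 12 arrays, as log2(signal + 16), by treatment and day on the x axis with 1 point per pool of 5 eyes and day 12 in grey. At day 12 SHAM pool 1 (filled blue) and ONX pool 2 (open red) lie near or above the ONX level of day 4. SHAM pool 2 and ONX pool 1 lie near the SHAM level of day 4.

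Tubulins, the building blocks of microtubules, had the same order in 10 of 14 genes, against 23.5% of all genes. The beta-tubulin gene tubb5 read 13.52, 9.40, 8.98 and 13.35, with the same order in its second probe set, and a difference by label of -0.29 ± 1.38 (adjusted p = 0.9998, limma). The alpha-tubulin gene tuba8l3 read 11.09, 9.12, 8.17 and 11.65, and tuba1b read 11.80, 10.81, 10.20 and 12.35. Tubulin genes are alike in sequence, so their probe sets may share signal. In tuba5 ONX pool 2 stood apart at 11.17 from 10.02, 10.02 and 9.65. A further list joined genes of the cytosolic chaperonin, which folds tubulin and actin, with prefoldin and tubulin cofactor genes. Of its 16 measured genes 12 were highest in SHAM pool 1 and ONX pool 2, with all chaperonin subunit genes among them. Its differences were small, with cct4 at 11.22, 10.54, 10.75 and 11.13, and none of the 16 reached 2-fold within a label.

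Cytosolic ribosomal protein genes had SHAM pool 1 and ONX pool 2 on top in 56 of 69 genes (81.2%), against 23.5% of all genes. Their medians were 0.17 for ONX pool 2 over pool 1 and 0.25 for SHAM pool 1 over pool 2, and none reached 2-fold. The gene rpl27a read 13.74, 13.29, 13.50 and 13.97.

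Intermediate filament genes of neurons split. The peripherin gene prph read 10.52, 6.30, 6.27 and 10.12, and the internexin gene inab read 12.55, 10.28, 9.86 and 12.13. Both followed the growth genes, though the low values of prph were dim and leave the size of its differences uncertain. The other internexin gene, inaa, read 11.94, 12.60, 12.25 and 11.99, which was the opposite order.

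Ganglion cell genes as a list of 10 had no common order. The homeobox gene isl1a read 10.54, 10.41, 10.46 and 10.24, and irx4a read 8.18, 8.11, 8.31 and 7.94. Both were lowest in ONX pool 2, and at day 4 both ONX arrays of isl1a had been at 9.20 and 9.47. The neuronal RNA-binding protein gene elavl4 read 9.52 in SHAM pool 2, 9.29 in ONX pool 1 and 10.70 in ONX pool 2 and was highest in SHAM pool 1, like the growth genes, while its relative elavl3 read 11.28, 10.75, 10.73 and 10.53. The chemokine receptor gene cxcr4b was highest in ONX pool 2, at 9.21, 9.0, 8.63 and 10.08.

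Photoreceptor, interneuron, synaptic vesicle and neurotransmitter receptor genes mostly had the opposite order to the growth genes. The synaptic vesicle list is not confined to cells other than ganglion cells, and shares sncgb with the ganglion cell list. SHAM pool 2 and ONX pool 1 were highest in 10 of 12 rod genes, 16 of 20 cone genes, 14 of 18 amacrine, bipolar and horizontal cell genes, 11 of 12 synaptic vesicle and SNARE genes and 6 of 6 neurotransmitter receptor genes, against 23.6% of all genes. None of these lists held a gene with SHAM pool 1 and ONX pool 2 on top. The rod transducin gene gnat1 read 14.69, 15.00, 15.08 and 14.31, and the cone transducin gene gnat2 read 13.65, 14.20, 14.16 and 13.61. These are differences of under 2-fold, and at day 4 the ONX arrays had been lower, at 13.87 and 13.84 for gnat1.

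The widest member of the receptor list was grin1a, an NMDA receptor subunit, at 10.45, 10.66, 11.17 and 9.63. In gad2, which makes the transmitter GABA, the values were 10.15, 10.84, 10.67 and 9.78. In each gene ONX pool 2 was the lowest of the 4. The median of ONX pool 2 minus pool 1 was -0.73 for rod genes, -0.48 for cone genes and -1.01 for receptor genes, and that of SHAM pool 1 minus pool 2 was -0.32, -0.38 and -0.28. Lens genes had SHAM pool 2 and ONX pool 1 on top in 8 of 8, against 23.6% of all genes. The alpha-crystallin gene cryaa read 13.46, 13.71, 14.00 and 12.77.

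In the median, clock and melatonin genes differed more between the ONX pools than between the SHAM pools. Their medians were -0.83 for ONX pool 2 minus pool 1 and -0.11 for SHAM pool 1 minus pool 2. Members such as bhlhe41 and aanat2 had SHAM pool 2 and ONX pool 1 on top, while others had another order. The melatonin synthesis enzyme gene aanat2 read 12.51, 12.78, 13.02 and 11.93. The core clock gene bmal1b was higher in both pool 1 arrays, at 7.50, 6.59, 7.72 and 6.35, and so was cry1b, at 8.14, 7.42, 8.55 and 7.42. The hour of collection is not given in the labels.

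Microglia and macrophage genes had SHAM pool 1 and ONX pool 2 on top in 26 of 27 measured genes (96.3%), against 23.5% of all genes. No other list with more than 10 genes had a higher share. The median of the microglia genes was 1.04 for ONX pool 2 over pool 1 and 0.76 for SHAM pool 1 over pool 2. The complement gene c1qc read 9.51, 8.94, 8.95 and 10.29, and the galectin gene lgals9l1 read 9.69, 7.36, 7.47 and 9.54. For the scavenger receptor gene marco, a macrophage surface protein, the values were 9.95, 7.93, 9.02 and 9.48. The protease gene ctsk, which is also known from bone, stood out in ONX pool 2, at 9.93, 9.21, 9.60 and 12.06.

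Cell cycle and DNA replication genes had this order in 21 of 26, against 23.5% of all genes, with most of the difference between the ONX pools. The medians were 1.2 for ONX pool 2 over pool 1 and 0.37 for SHAM pool 1 over pool 2. The replication helicase gene mcm5 read 6.76, 6.17, 5.96 and 7.92, and the sliding clamp gene pcna read 10.72, 10.63, 10.41 and 11.40. In both genes ONX pool 2 stood above the other 3 arrays. In mcm5 those 3 arrays were dim, so the size of its difference is uncertain. Müller glia genes were mixed, with 7 of 15 in this order. The radial glia gene fabp7a, for a brain fatty acid-binding protein, read 12.63, 10.73, 10.59 and 13.36. The glutamine synthetase gene glula was lowest in ONX pool 2, at 13.20, 13.35, 13.55 and 13.04. Its paralog glulb, named after its values were seen, read 10.64, 10.43, 11.09 and 10.96. In glulb both ONX arrays were above both SHAM arrays, with an unadjusted p of 0.045 and an adjusted p of 0.9998 in limma. The glial filament gene gfap read 9.27, 8.91, 8.92 and 9.56.

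**Figure D4:**
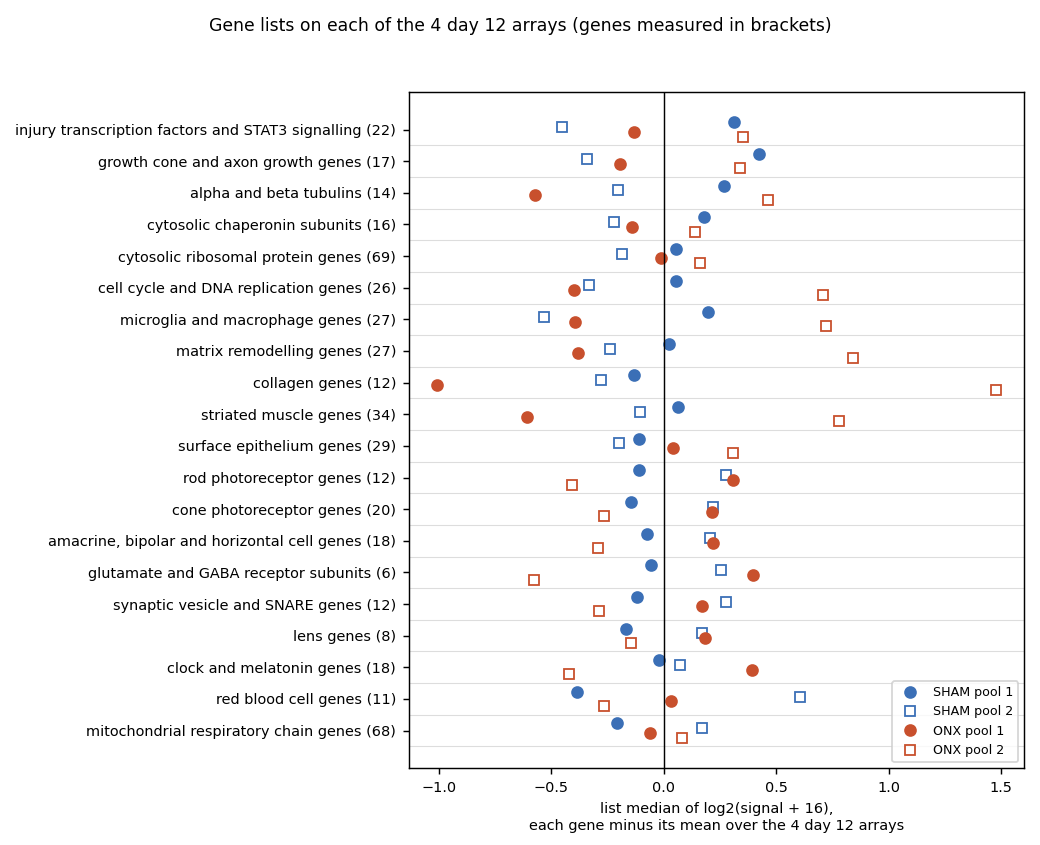
Medians of 20 gene lists on each of the 4 day 12 arrays, as log2(signal + 16) of each gene minus its own mean over these 4 arrays, so that 0 is the gene's day 12 average. Growth, microglia and cell cycle lists lie to the right in SHAM pool 1 and ONX pool 2, retinal neuron and lens lists lie to the right in SHAM pool 2 and ONX pool 1, and collagen and muscle lists separate the ONX pools more than the SHAM pools.

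In the medians of the collagen and muscle lists the ONX pools were farther apart than the SHAM pools. The median over 12 collagen genes was 2.71 for ONX pool 2 over pool 1 and -0.04 for SHAM pool 1 over pool 2. The type I collagen genes col1a1a and col1a2 read 12.58, 11.93, 10.61 and 13.97, and 12.26, 11.65, 10.01 and 13.87. The cartilage collagen gene col10a1a read 8.80, 9.47, 7.09 and 11.92. In all 3 genes ONX pool 2 was the highest and ONX pool 1 the lowest of the 4 arrays, with both SHAM arrays between. The pools of one label also lay apart at day 21, where col1a1a read 13.35, 11.64, 11.51 and 12.75 in the same order of arrays. There its SHAM pools were farther apart than its ONX pools.

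Striated muscle genes had medians of 1.39 and 0.19 for the same differences, over 34 genes. The skeletal actin gene acta1a read 8.80, 7.09, 6.41 and 11.24, and the myosin light chain gene myl1 read 10.45, 9.98, 8.68 and 11.96. In both genes ONX pool 2 was the highest array and ONX pool 1 the lowest. At day 21 acta1a read 9.24, 7.72, 6.11 and 8.97, and myl1 read 10.56, 9.82, 8.89 and 10.68. ONX pool 1 was again the lowest array of the day in both. Single members departed from the medians. The parvalbumin gene pvalb2, a calcium buffer of fast muscle, read 9.89, 6.85, 7.47 and 11.02 and separated the SHAM pools about as widely as the ONX pools. The myoglobin gene mb read 13.16, 12.02, 13.46 and 11.27 and was higher in pool 1 of both labels. The creatine kinase gene ckma read 12.36, 12.97, 12.56 and 12.80. Matrix remodelling genes lay between both patterns. The gelatinase gene mmp9 read 9.09, 7.71, 7.90 and 10.71, and the fibronectin gene fn1a read 9.62, 7.82, 7.26 and 10.75, both like the growth genes, whereas periostin, postnb, read 10.66, 11.41, 9.87 and 12.59. The part of eye muscle or of tissue around the eye in these differences was not tested.

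Over all genes, 310 (5.2%) were at least 2-fold higher in ONX pool 2 than in pool 1 and 123 (2.06%) at least 2-fold lower. In the SHAM pools 153 (2.56%) were at least 2-fold higher in pool 1 than in pool 2 and 59 (0.989%) lower. Both held for 70 genes (1.17%) in the higher direction, among them 7 of 17 growth cone genes, 4 of 22 injury factor genes, 4 of 14 tubulins and 4 of 27 microglia genes. In the lower direction it held for 2 genes (0.0335%), the hemoglobin gene hbba2 and the somatostatin gene sst1.1, a neuropeptide of inhibitory neurons that was singled out after its values were seen. They read 8.87, 10.23, 9.52 and 8.40, and 7.02, 8.40, 8.38 and 6.92. Across the 9301 probe sets the 2 differences had a Pearson correlation of 0.121 and a Spearman correlation of 0.108.

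**Figure D5:**
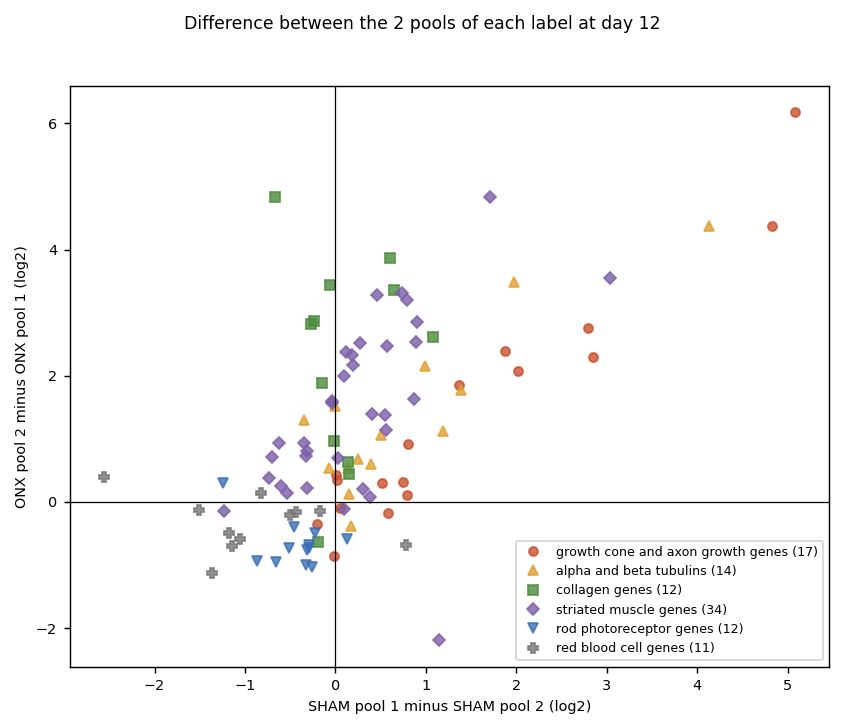
Difference between the 2 pools of each label at day 12 for the members of 6 gene lists, with SHAM pool 1 minus pool 2 on the x axis and ONX pool 2 minus pool 1 on the y axis, both in log2 units and 1 point per gene. Growth cone genes and tubulins reach the upper right, most collagen and muscle genes lie above 0 on the y axis and near 0 on the x axis, and most red blood cell genes lie to the left.

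A small set of genes separated pool 1 from pool 2 in both labels alike. The widest differences were in mhc1ufa, a major histocompatibility class I gene, which read 10.90, 5.44, 10.66 and 4.1. Both of its pool 2 values were dim, and that of ONX pool 2 lay near the bottom of the scale. The size of its differences is therefore uncertain. At least 2-fold higher in pool 1 of both labels were 10 genes (0.168%), among them the green cone opsin gene opn1mw1 at 12.13, 10.45, 12.68 and 9.04 and the mitochondrial carrier gene slc25a14 at 8.30, 5.79, 7.83 and 5.55. In pool 2 of both labels 7 genes (0.117%) were at least 2-fold higher, among them the flow-responsive factor gene klf2a at 9.67, 11.12, 9.52 and 11.51 and the deiodinase gene dio2 at 7.80, 9.38, 7.41 and 8.93. The labels do not say whether pools of one number held eyes of the same fish.

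Red blood cell genes varied mostly between the SHAM pools. Their median was -1.06 for SHAM pool 1 minus pool 2 and -0.21 for ONX pool 2 minus pool 1, over 11 genes. The anion exchanger gene slc4a1a, of the red cell membrane, read 7.54, 10.09, 8.10 and 8.49. SHAM pool 2 was the highest of the 4 in slc4a1a and in hbba2. Respiratory chain genes were highest in both pool 2 arrays in 45 of 68, against 18.2% of all genes. Their medians were -0.36 for SHAM pool 1 minus pool 2 and 0.15 for ONX pool 2 minus pool 1. The ATP synthase subunit gene atp5meb read 11.69, 12.35, 11.86 and 12.10.

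The genes psmb8a and psmb9a encode subunits of the immunoproteasome, which shapes peptides for antigen presentation, and read 8.51, 8.64, 8.12 and 9.61, and 7.36, 7.68, 7.13 and 8.62. ONX pool 2 was the highest array in both. Another subunit gene, psmb10, named after its values were seen, had the crossed order at 9.12, 8.58, 8.83 and 9.34. The gene isg15, an interferon-induced ubiquitin-like gene, followed the growth genes at 9.43, 8.20, 8.22 and 9.79.

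The effect of ONX at day 12 was then compared with that of the other days in the same fit. Against day 4, 0 of 9301 probe sets (0%) passed, with a smallest adjusted p of 0.2822 in limma, while 1418 (15.2%) had an unadjusted p under 0.05. In several of the genes with the smallest p, all 4 arrays of day 12 lay near the SHAM level of day 4. The creatine kinase gene ckmt2a read 13.16, 13.62, 13.47 and 13.33 at day 12, against means of 13.6 in SHAM and 12.0 in ONX at day 4, an effect that was 1.62 ± 0.26 higher at day 12 (adjusted p = 0.2822). In npm1a, a nucleolar chaperone gene, the values were 10.35, 9.77, 9.87 and 10.52, with SHAM pool 1 and ONX pool 2 on top. Day 4 had given 9.72 and 9.77 in SHAM and 11.76 and 11.53 in ONX. The effect in npm1a was -1.76 ± 0.37 on the same scale. For mbpa the effect was 3.56 ± 0.66 higher than at day 4, where ONX had been the lower label. ONX pool 1 of day 4 read 13.76 in the cyclin gene ccnb1 against 8.59 in ONX pool 2, and without ONX pool 2 of day 4 this comparison called 1829 probe sets, for which ONX pool 1 was then the only ONX array of day 4.

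Against day 21, 0 of 9301 probe sets (0%) passed and 21 (0.226%) had an unadjusted p under 0.05 in limma. Without ONX pool 1 of day 12 the latter count was 277, and without SHAM pool 1 of day 12 it was 62. Across the 9301 probe sets, ONX pool 2 minus pool 1 at day 12 had a Pearson correlation of 0.68 with ONX pool 2 of day 4 minus the SHAM mean of day 4, and SHAM pool 1 minus pool 2 one of 0.461. The difference by label, ONX minus SHAM at day 12, had one of 0.43. With ONX pool 1 of day 4 in its place these 3 correlations were 0.391, 0.27 and 0.289. The 2 sides of each correlation share no array, probe sets are not independent replicates, and all of them share the day 4 SHAM arrays.

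The scaling of the arrays bears on the differences between single arrays. The authors scaled all arrays to one trimmed mean, and the median over all genes was then -0.01 for ONX pool 2 minus pool 1 and 0.01 for SHAM pool 1 minus pool 2. Scaled to the 9 hybridisation controls these medians were 0.28 and 0.16, and to the 24 poly-A controls 0.12 and -0.34. Such a scaling shifts every gene of an array alike, so the list medians above are to be read against the median of all genes. Counts of genes led by a SHAM and an ONX array were made under the authors' scaling alone. Shifts of whole arrays can change these counts, most of all in lists with small differences. Under the poly-A controls the SHAM difference turned negative for the tubulin (-0.03), matrix (-0.12), muscle (-0.16), ribosomal (-0.10), Müller glia (-0.10) and surface epithelium (-0.28) lists, all above the -0.34 of all genes. The 70 genes at least 2-fold higher on both differences were 113 with hybridisation controls and 48 with poly-A controls.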

How the data were processed

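RNA of 12 pools of 5 whole eyes was hybridised to Affymetrix zebrafish arrays, 1 array per pool, and the 4 arrays of day 12 are described here. Each probe set has 1 deposited signal intensity per array, made by the authors with MAS5, per the submitters' processing notes; the version and probe annotation build are not given in the sources used here. From the values, every array has a mean of 500.1 after trimming 2% at each end. The table held 15617 probe sets, of which 115 were controls. Of the rest, 10795 had 1 gene symbol, 135 several and 4572 none, and the RefSeq gene table held 10711 of the first.

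Signals were offset by 16 and put on a log2 scale. Probe sets in the top 60% by mean over the 12 arrays were kept (a mean signal of at least 135). Of the 9301 kept, 6984 had 1 symbol; the brightest probe set of each gene gave 5967 genes. The limma package (3.58.1, R 4.3.3) fitted 1 mean for each of 6 groups with a variance trend (6 residual and 4.23 prior degrees of freedom), with Benjamini-Hochberg adjustment at 0.05 over all tested probe sets and moderated standard errors. Differences between single arrays have no test. The spread behind each p-value is that between pools of one label, and with so few arrays precision is limited by their number.

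The genes and the 36 lists were chosen with earlier results of these data known. Named genes were those called or with the 5 smallest p in a direction without calls, the 10 widest gaps between labels, the 8 widest differences between pools in each direction, a set of nerve injury genes, cell type markers and the 4 widest members of each list. The fit was tested on simulated data with 200 changed probe sets, of which it recovered 19 of 67 at 2-fold, 50 of 67 at 4-fold and 64 of 66 at 8-fold, with 3 false among 136 calls. Alternatives were other offsets, filters, scalings, variance models, thresholds and samples, and a replicate block. No sequences were used here.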

Additional observations from a re-analysis of the deposited data

How the results depend on the processing

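The count of 0 called probe sets at day 12 held in limma under other offsets, filters, scalings, variance models, an adjusted p of 0.1 and the day 12 arrays alone, with 4 to 155 probe sets at an unadjusted p under 0.05. An unadjusted p under 0.01 with a 2-fold difference gave 2 at day 12, mbpa and stxbp6l, 271 against day 4 and 0 against day 21. With arrays left out, singly or as the pairs of day 12 arrays, the count ranged from 0 to 2 at day 12, from 0 to 1829 against day 4 and from 0 to 0 against day 21. Probe sets at an unadjusted p under 0.05 then ranged from 18 to 601, from 253 to 3627 and from 8 to 426. The 2 came without both pool 2 arrays of day 12, where both were lower in ONX (adcyap1b, named after its values were seen, adjusted p = 0.0335, and a probe set without a symbol, 0.0248). Against day 4 the count was 284 without these arrays, 1 (stxbp6l, adjusted p = 0.0351) without ONX pool 2 of day 12 and 1829 without ONX pool 2 of day 4. By label, gap43 ranged from -4.73 to 4.47, atf3 from -3.40 to 3.67 and tubb5 from -4.54 to 3.96 as arrays were left out, each changing sign, since 1 high or low array then stands for a label; mbpa kept its sign, from 0.57 to 2.86, and stxbp6l from 0.61 to 2.15. Where a label kept 1 array, its spread was taken from the remaining groups. Chosen after seeing the data, other scalings moved the surface epithelium count of 15 to 5 (hybridisation controls) and 9 (poly-A controls), with a median of 0.24 and 0.27, and the 70 shared genes to 113 and 48.

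Same-numbered pools were not taken as pairs, since the numbering of pools is not explained in the labels. The deviations of same-numbered day 12 pools from their label means had a Pearson correlation of -0.121 and a Spearman correlation of -0.108 across probe sets. With a replicate block of pool number nested in day, limma called 0 probe sets in each of the 3 comparisons, with 21, 1163 and 18 at an unadjusted p under 0.05.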
